A study of Mus musculus with 13 samples.

Results

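Expanded T cell receptor (TCR) α-chain clonotypes were described in rescued regulatory T (Treg) cells, the cells in which Foxp3 was switched back on in mice that had lacked it. Rows of a table were separate clonotypes when they differed in the V gene, the J gene or the bases of the CDR3, the junction of the chain. A clonotype was functional when its CDR3 held no stop codon or frameshift. A functional clonotype was called expanded when it took 0.1% or more of the functional counts of its sample, so the members were selected on their counts, and their number and size are given as a description, with no test. By this rule 1230 of 78521 functional clonotypes were expanded, and the other 77291 served as the reference within the same samples. The smallest member took 0.1000506% of its sample and the largest clonotype left out took 0.0998%; 188 members lay between 0.1% and 0.11%, and 197 clonotypes lay between 0.09% and 0.1%.

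The 13 samples came from male C57BL/6 mice of genotype Foxp3LSL/yCd4creERT2. The Foxp3LSL allele carries a floxed stop cassette that silences Foxp3, and a tamoxifen-activated Cre made from the Cd4 locus removes it. A single dose of 4-hydroxytamoxifen (4-OHT) was given to all mice at postnatal day 14, and spleen and lymph node cells were sorted as TCRβ+CD4+GFP+Thy1.1- cells. The groups were 1.5 months after 4-OHT (age 8 weeks, n = 2), 3 months (age 3.5 months, n = 4), 5 months (age 5.5 months, n = 2) and 7 months (age 7.5 months, n = 5). Age and time after 4-OHT cannot be told apart in this design, no untreated Treg cells were analysed here, and because Cre acts for a short time after the dose, each sample holds the progeny of cells labelled early in life. The labels do not say that each sample is a separate mouse, so p-values measure the spread between these samples.

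In the α chain a V segment is joined directly to a J segment, without a D segment. Exonucleases trim both ends and terminal deoxynucleotidyl transferase can add bases between them, so a junction without added bases can be formed again and again in different cells and different mice. The CDR3 spans this junction and makes much of the contact with peptide and MHC. In Treg cells the receptor is selected on self antigens in the thymus, and clones that meet their antigen in the periphery can divide further.

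The CDR3 sequences below, read 5′ to 3′ from the deposited tables, are those the results turn on. The first set holds the largest clonotype of each time point and the largest clonotype of 7 months replicate 4, which was expanded in a second sample. Capitals mark bases inserted between the V and J segments, and sequences without capitals have none.
1.5 months replicate 1, TRAV3-3 with TRAJ23: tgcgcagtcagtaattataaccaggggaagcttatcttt
3 months replicate 4, TRAV12-2 with TRAJ27: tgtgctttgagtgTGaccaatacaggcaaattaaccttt
5 months replicate 1, TRAV14N-3 with TRAJ39: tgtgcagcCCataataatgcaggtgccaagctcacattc
7 months replicate 5, TRAV15-2-DV6-2 with TRAJ37: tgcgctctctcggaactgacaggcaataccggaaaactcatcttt
7 months replicate 4, TRAV4-4-DV10 with TRAJ40: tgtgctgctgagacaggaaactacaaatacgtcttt

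The second set holds the 6 nucleotide clonotypes that were expanded in the largest numbers of samples, named W1 to W6, and all 6 lack inserted bases. W6 is 1 of 5 clonotypes expanded in 3 samples, taken for the highest mean share where expanded.
W1, TRAV14D-1 with TRAJ22: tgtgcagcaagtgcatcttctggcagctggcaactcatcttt
W2, TRAV14D-1 with TRAJ13: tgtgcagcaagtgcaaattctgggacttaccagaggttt
W3, TRAV4N-4 with TRAJ12: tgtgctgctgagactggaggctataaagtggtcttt
W4, TRAV7D-2 with TRAJ12: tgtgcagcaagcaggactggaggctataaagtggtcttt
W5, TRAV4N-4 with TRAJ12: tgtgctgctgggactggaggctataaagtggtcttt
W6, TRAV8D-1 with TRAJ22: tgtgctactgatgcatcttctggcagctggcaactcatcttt

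The TRAV and TRAJ segments lie on chromosome 14. In GRCm38 the TRAV genes of the tables span chr14:52427928-53977678 and the TRAJ genes chr14:54155005-54217901, on the plus strand for TRAJ. The 134 segment names used by expanded clonotypes were all found in the annotation. Names with D or N mark near-identical copies of a V gene, so the copy assigned to a clonotype is uncertain, and V use was therefore counted by family. Functional counts lay between 477052 and 882170 per sample, so the smallest member of any sample rested on 481 counts or more. At these depths 3 counts correspond to 0.000340% to 0.000629% of functional counts, and all such limits cover counting error only.

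These tables hold no expression values, so the cells could be checked only through their receptors. The V and J pair of invariant natural killer T cells, TRAV11 with TRAJ18, was seen in 29 clonotypes, none of them expanded. The pair of mucosal-associated invariant T cells, TRAV1 with TRAJ33, was seen in 7 clonotypes, of which 1 was expanded at 0.118%. The CDR3s of these clonotypes were not compared with the invariant chains, so the pair alone does not identify such cells. No expanded clonotype used a TRDV or TRDJ segment, the segments of γδ T cells, against 83 of the others. An immunoglobulin or TCRβ segment name, of loci outside the TCRα locus, was given to 13 of the other clonotypes in 7 samples and to no expanded clonotype.

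Some libraries shared clonotypes mainly in 1 direction. Of the 56 expanded clonotypes of 1.5 months replicate 1, 33 were found in 3 months replicate 4, and 24 of these at a level at least 100 times lower. Of the 80 of 3 months replicate 4, 43 were found in 5 months replicate 1, 36 of them at least 100 times lower. Of the 118 of 7 months replicate 5, 36 were found in 3 months replicate 1, 30 of them at least 100 times lower. Over the 156 ordered pairs of libraries the median share found was 8.69%. Whether the low occurrences came from carry-over or index exchange between libraries was not tested. Sharing between samples is given below both with all occurrences and without those at least 100 times lower than the highest one.

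Expanded clonotypes were fewest at the earliest time point and took between 11.3% and 34.9% of functional counts. At 1.5 months there were 56 and 78 of them per sample. At 3 months there were 100, 84, 71 and 80. At 5 months there were 117 and 116, and at 7 months 88, 94, 118, 110 and 118. The 1.5- and 3-month samples overlapped in number, as did the 5- and 7-month samples, while both 5-month samples lay above every 1.5- and 3-month sample. The mean number was 67 ± 15.6 (SD, n = 2) at 1.5 months, 83.8 ± 12.1 (n = 4) at 3 months, 116.5 ± 0.707 (n = 2) at 5 months and 106 ± 13.9 (n = 5) at 7 months.

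Their share of counts was 11.3% and 13.8% at 1.5 months. It was 23.0%, 17.5%, 15.5% and 18.6% at 3 months. It was 29.2% and 20.7% at 5 months, and 17.4%, 18.7%, 24.5%, 30.9% and 34.9% at 7 months. Both 1.5-month samples lay below every later sample, and the 3- and 7-month ranges overlapped. With all samples thinned to 477052 counts the mean number was 66 ± 18.4 (SD, n = 2) at 1.5 months and 105.6 ± 12.9 (n = 5) at 7 months. Expanded clonotypes were 0.700% to 2.40% of the functional clonotypes of a sample. The mean number of functional clonotypes was 7247.5 ± 1061 (n = 2) at 1.5 months and 6399 ± 612 (n = 4) at 3 months. It was 5108 ± 396 (n = 2) at 5 months and 5643 ± 599 (n = 5) at 7 months. The paper likewise reports moderately fewer unique clones at 5 and 7 months than at 1.5 months, with unchanged unevenness (Gini coefficient). How far this lower number bears on the number and share of expanded clonotypes was not tested.

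**Figure D1:**
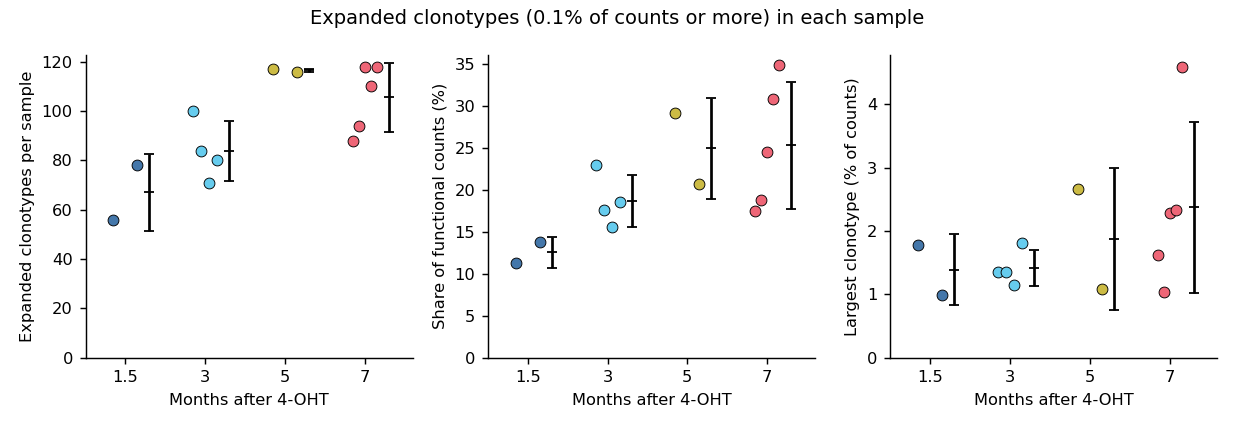
Number of expanded clonotypes, their share of functional counts in percent and the largest clonotype in percent of functional counts, against months after 4-OHT. Each point is 1 sample and the bars beside the points give the mean and SD of the time point; the 1.5-month samples hold 56 and 78 expanded clonotypes and the 7-month samples 88 to 118.

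Most members were small. The median expanded clonotype took 0.122% to 0.172% of counts depending on the sample, and 6 to 45 clonotypes per sample exceeded 0.2%. The 10 largest held 25.1% to 49.0% of the counts of all expanded clonotypes of a sample. The largest clonotype took 1.79% and 0.995% at 1.5 months, and 1.36%, 1.36%, 1.15% and 1.81% at 3 months. At 5 months it took 2.67% and 1.08%, and at 7 months 1.63%, 1.03%, 2.28%, 2.33% and 4.59%. The TRAV15-2-DV6-2 with TRAJ37 clonotype of 7 months replicate 5 was the largest of all, with 24412 counts (4.59%, 95% Wilson binomial interval 4.54% to 4.65%). That interval covers counting error only and takes the counts as independent. The paper sorted fewer cells per sample than there are counts, so the interval is too narrow for the share among cells. The clonotype was found in 6 other samples at 0.00201% or less.

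The largest clonotype of a sample was seldom abundant in another. Matched by V name, J gene and CDR3 bases, it was found nowhere else in 3 of the 13 samples. In 9 it was found in other samples at 0.00828% or less. The exception was TRAV4-4-DV10 with TRAJ40, at 2.33% of 7 months replicate 4 and at 1.01% of 1.5 months replicate 1, where it rested on 5580 counts. It was found in 7 other samples in all and has no inserted bases. Of the 13 largest clonotypes, 7 had no inserted bases. By CDR3 amino-acid sequence alone, each of the 13 recurred in 2 to 9 other samples, at levels not given here. The 3 found nowhere else by the full match recurred in 4 other samples each.

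Expanded clonotypes carried shorter non-templated additions than the rest. They held 1.74 ± 0.214 inserted bases (SD over samples, n = 13) against 2.18 ± 0.0467 in the other clonotypes, and the mean was lower in 13 of 13 samples. The difference was -0.433 ± 0.198 bases (exact two-sided permutation test over all 8192 sign assignments, p = 0.000244, the smallest this design can give; Benjamini-Hochberg adjusted over 9 features, 0.000732). In 7 months replicate 5 the means of 2.18 and 2.19 bases were nearly equal.

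The share without any inserted base was 39.6% ± 5.51 among expanded clonotypes and 30.8% ± 0.955 among the others (n = 13). It was higher in 12 of 13 samples (exact permutation test, p = 0.000488, adjusted p = 0.000879). At 1.5 months it was 50% and 43.6% in expanded clonotypes, and at 3 months 47.5%, 40.5%, 40.8% and 32.5%. At 5 months it was 35.9% and 43.1%, and at 7 months 37.5%, 40.4%, 35.6%, 36.4% and 31.4%. The lowest value, in 7 months replicate 5, was the only one that did not exceed that of the other clonotypes of its sample (31.5%). Other clonotypes ranged only from 29.0% to 32.0%. Junctions with 5 inserted bases made up 3.82% ± 2.49 of expanded and 5.72% ± 0.551 of other clonotypes.

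**Figure D2:**
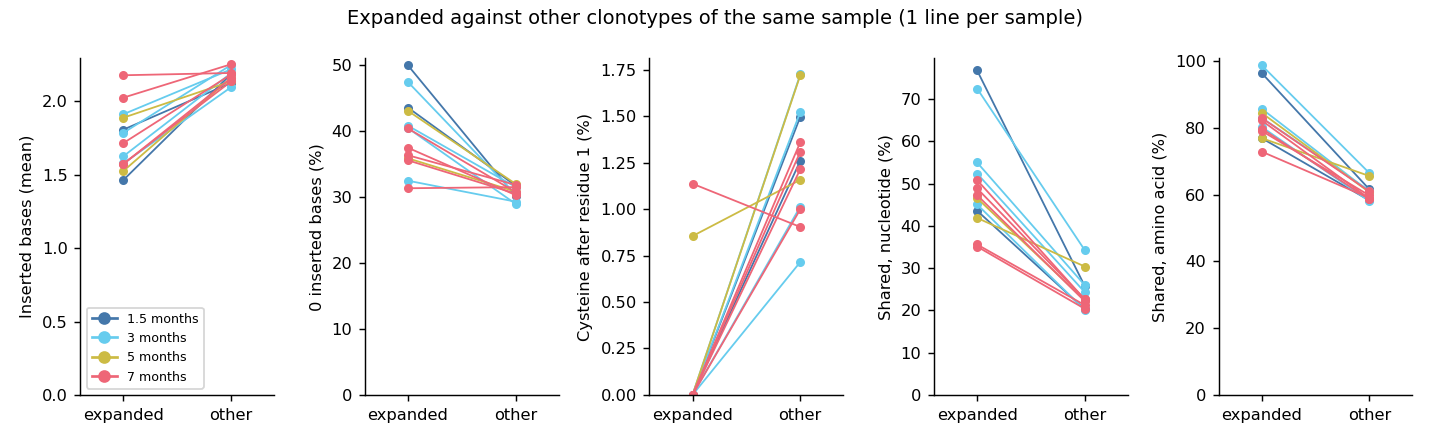
Mean inserted bases per clonotype, and the percentage of clonotypes with 0 inserted bases, with a cysteine after the first CDR3 residue, and shared with another sample by nucleotide clonotype or by CDR3 amino-acid sequence. Each line joins the expanded and the other clonotypes of 1 sample and is coloured by months after 4-OHT; inserted bases are lower among the expanded in 13 of 13 samples and sharing is higher in 13 of 13.

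CDR3 length and the hydrophobic positions of the CDR3 did not pass the test. The mean length was 13.42 ± 0.145 amino acids in expanded and 13.50 ± 0.0225 in other clonotypes (n = 13, lower in 10 of 13 samples, exact permutation test, p = 0.0684, adjusted p = 0.0879). CDR3s of 12 residues made up 18.3% ± 4.07 of expanded and 14.3% ± 0.689 of other clonotypes. Hydrophobic residues at both CDR3 positions 6 and 7, counted from the first cysteine, a feature linked to self-reactivity in earlier work on the TCRβ chain and counted here in the α chain, occurred in 2.52% ± 1.95 of expanded and 2.68% ± 0.206 of other clonotypes (exact permutation test, n = 13, p = 0.765, adjusted p = 0.765). The mean TRAJ number, which falls towards the constant region, was 26.8 ± 1.68 and 27.6 ± 0.317 (exact permutation test, n = 13, p = 0.1096, adjusted p = 0.123). Against other clonotypes of at least 0.01% this difference in TRAJ number was -1.36 (adjusted p = 0.0185).

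A cysteine after the first CDR3 residue was rare among expanded clonotypes. It occurred in 0.153% ± 0.378 of them and in 1.26% ± 0.307 of the others (n = 13, lower in 12 of 13 samples, exact permutation test, p = 0.000488, adjusted p = 0.000879). The members with one were 2, a TRAV12-2 with TRAJ37 clonotype of 5 months replicate 1 (0.449%) and a TRAV14-2 with TRAJ50 clonotype of 7 months replicate 1 (0.123%). Of the 967 functional clonotypes with such a cysteine, 478 used TRAJ35, and 50.2% of the TRAJ35 clonotypes had one. With TRAJ35 left out, the difference was -0.490 percentage points (adjusted p = 0.00791), and against other clonotypes of 0.01% or more it was -0.179 percentage points and did not pass the test (adjusted p = 0.136).

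Inserted bases and the share of clonotypes without them followed clonotype size on both sides of the threshold. Mean inserted bases were 2.55 ± 0.148 in clonotypes under 0.001% of counts, 2.06 ± 0.0650 at 0.01% to 0.03%, 1.85 ± 0.0982 at 0.03% to 0.1%, 1.78 ± 0.195 at 0.1% to 0.3% and 1.45 ± 0.670 from 0.3% (SD over samples, n = 13). The share without inserted bases was 27.1% ± 1.199 in the smallest class, 36.0% ± 1.62 at 0.03% to 0.1% and 47.2% ± 17.4 in the largest. The largest class holds 170 clonotypes, so its spread between samples is wide. With the number of cells the paper sorted per sample, a share under 0.001% is less than that of an average cell. The smallest class can therefore not be read as small clones. The cysteine was found in 2.62% ± 1.19 of the smallest class, in 0.358% ± 0.158 of clonotypes at 0.01% to 0.03% and in 0.452% ± 1.63 of the largest class. With all occurrences counted, nucleotide sharing with another sample was 26.7% ± 9.97 in the smallest class, 18.5% ± 1.75 at 0.001% to 0.01% and 64.0% ± 21.6 in the largest. The smallest class held 2455 clonotypes at least 100 times lower than in another sample. With such occurrences removed, sharing was 16.4% ± 6.13 in the smallest class, 18.4% ± 1.75 at 0.001% to 0.01%, 20.4% ± 2.54 at 0.01% to 0.03%, 23.6% ± 2.03 at 0.03% to 0.1%, 27.3% ± 6.79 at 0.1% to 0.3% and 29.7% ± 14.2 in the largest. The order of the smallest classes and the height of the largest therefore depended on these occurrences.

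**Figure D3:**
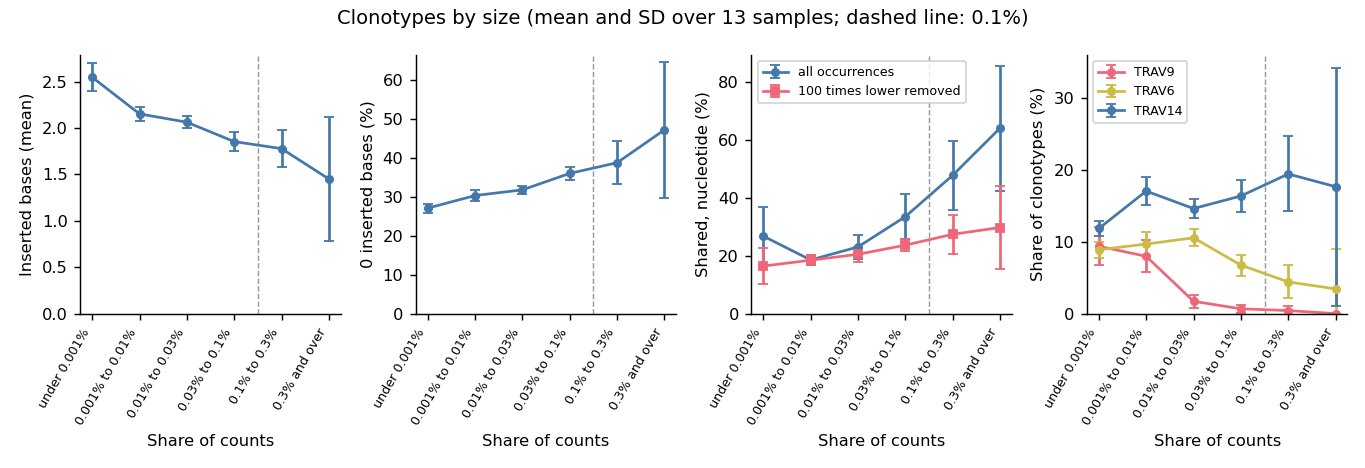
Mean inserted bases, the percentage of clonotypes without inserted bases, the percentage found in another sample as a nucleotide clonotype, and the percentage that use TRAV9, TRAV6 or TRAV14, against clonotype size in percent of functional counts. Sharing is drawn with all occurrences (blue) and with those at least 100 times lower removed (red). Points are means and bars SDs over 13 samples, and the dashed line marks 0.1%; mean inserted bases go from 2.55 in the smallest class to 1.45 in the largest, and TRAV9 from 9.39% to 0%.

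Expanded clonotypes used a few V families more, and TRAV9 and TRAV6 less, than the other clonotypes of the same samples. The number of clonotypes per segment was tested with edgeR's quasi-likelihood test, with the sample as a block and Benjamini-Hochberg adjustment over all segments tested. Of 18 V families tested, 5 were called (27.8%), 3 of them higher and 2 lower. Under TMM normalization the split was 0 higher and 2 lower, and with DESeq2 0 higher and 3 lower, so only the lower calls of TRAV9 and TRAV6 held under each scaling. Of 60 single V genes tested in the same way, 15 were called (25%).

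TRAV9 was nearly absent from expanded clonotypes. It was used by 5 of the 1230 members, 1 each in 3 months replicate 2, 5 months replicates 1 and 2 and 7 months replicates 4 and 5, and by none in the other 8 samples. The use was 0.359% ± 0.480 of expanded and 5.05% ± 0.762 of other clonotypes (n = 13, lower in 13 of 13 samples), a log2 fold change of -3.63 ± 0.38 (SE, edgeR adjusted p = 5.22e-10). TRAV9 clonotypes were small throughout. They had a median share of 0.00159%, against 0.00941% for all functional clonotypes, and the highest took 0.217%. Non-functional TRAV9 clonotypes, which give no receptor, were small as well, with a median of 0.000667% of all counts against 0.00267% for all non-functional clonotypes. How far the recovery of TRAV9 transcripts bears on the difference was not tested. Against other clonotypes of 0.01% or more the log2 fold change was -1.85 (edgeR adjusted p = 0.00308).

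TRAV6 was used by 54 members, 4.33% ± 2.39 of expanded and 9.47% ± 0.516 of other clonotypes (n = 13). Its use among expanded clonotypes ran from 1.06% in 7 months replicate 2 to 8.18% in 7 months replicate 4, below the other clonotypes in 13 of 13 samples. The log2 fold change was -1.11 ± 0.19 (SE, edgeR adjusted p = 1.14e-05). Unlike TRAV9, TRAV6 clonotypes had a median share of 0.00957%, close to that of all functional clonotypes.

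TRAV14, TRAV4 and TRAV3 were used more. TRAV14 had 230 members and made up 19.0% ± 4.14 of expanded and 15.0% ± 0.458 of other clonotypes (n = 13). It was higher in 12 of 13 samples, the exception being 1.5 months replicate 1 with 14.3% and 15.0%, and its log2 fold change was 0.33 ± 0.10 (SE, edgeR adjusted p = 0.0128). TRAV4 had 159 members, 13.3% ± 3.81 against 10.0% ± 0.646, with a log2 fold change of 0.38 ± 0.12 (adjusted p = 0.0184). TRAV3 had 91 members, 7.13% ± 2.27 against 5.52% ± 0.290, with a log2 fold change of 0.42 ± 0.16 (adjusted p = 0.0483). For TRAV14, TRAV4 and TRAV3 the log2 fold changes under TMM were 0.33, 0.38 and 0.40 (edgeR adjusted p = 0.0532, 0.0507 and 0.0568). With DESeq2 they were 0.15, 0.19 and 0.22 (DESeq2 adjusted p = 0.359, 0.343 and 0.359). At a threshold of 0.2% none of the 3 passed (edgeR adjusted p = 0.245, 0.191 and 0.309). With each of the 13 samples left out in turn TRAV14 passed in all 13 fits, TRAV4 was lost without 7 months replicate 1 (edgeR adjusted p = 0.0613), and TRAV3 was lost in 9 fits (highest adjusted p = 0.104), passing among these fits only without 1.5 months replicate 1 or 3 months replicate 2, 3 or 4. Against other clonotypes of 0.01% or more TRAV14 passed (edgeR adjusted p = 0.00947), and TRAV4 and TRAV3 did not (0.123 and 0.168). TRAV14 did not pass against other clonotypes of at least 10 counts (adjusted p = 0.0626). TRAV7, the family with the most members (234), made up 19.6% ± 4.90 and 18.9% ± 0.743 and did not pass (log2 fold change 0.02 ± 0.10, adjusted p = 0.923).

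**Figure D4:**
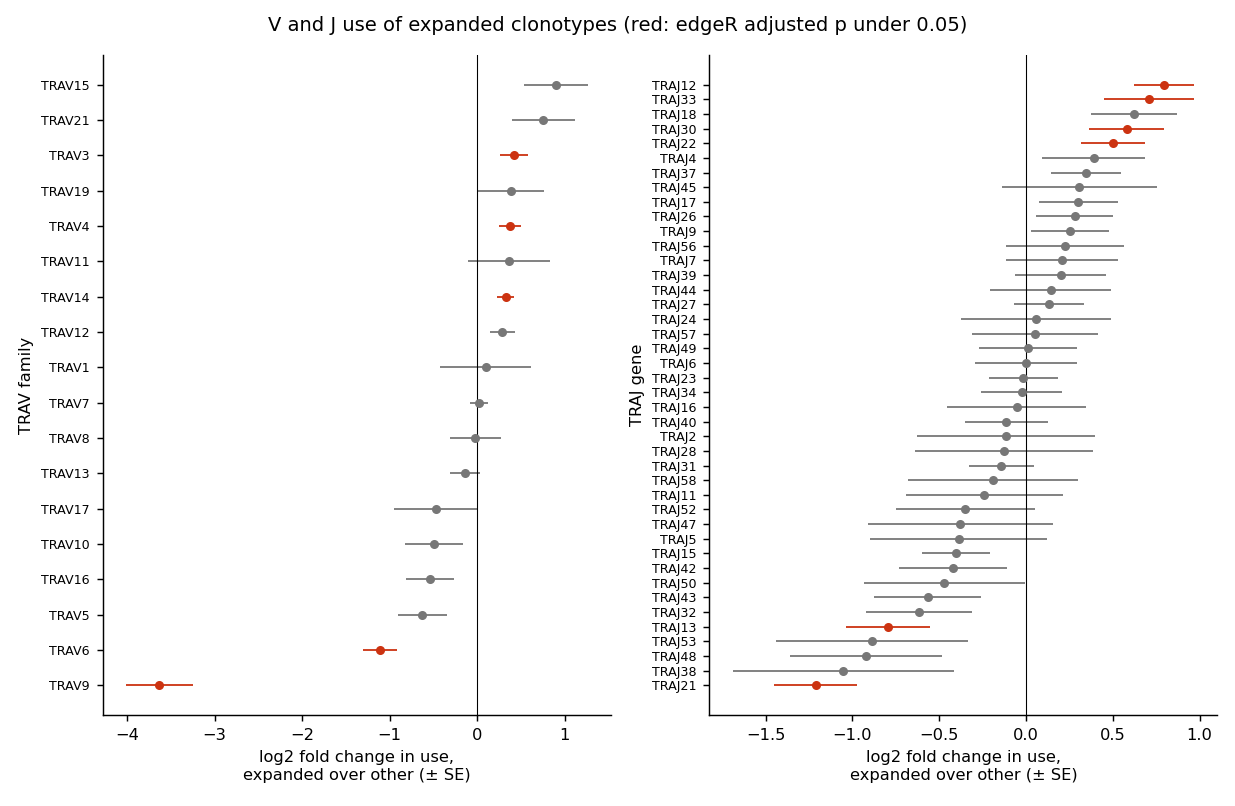
Log2 fold change in use, expanded over other clonotypes, for the V families and J genes tested that had at least 1 expanded clonotype. Points are edgeR estimates over 13 samples, bars are SEs, red marks an adjusted p under 0.05; TRAV9 lies at -3.63 and TRAJ12, the highest J gene, at 0.80, and TRAJ35, with no expanded clonotype, is not drawn.

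Of 43 J genes tested, 7 were called (16.3%), 4 higher and 3 lower, and under TMM normalization 1 higher and 6 lower. TRAJ12 (chr14:54206553-54206610) was higher. It was used by 85 members, 7.08% ± 2.59 of expanded against 3.98% ± 0.274 of other clonotypes (n = 13, higher in 12 of 13 samples, the exception being 7 months replicate 1 with 1 member). Its log2 fold change was 0.80 ± 0.17 (SE, edgeR adjusted p = 6.96e-05), and it passed under TMM (adjusted p = 0.0119) and DESeq2 (adjusted p = 0.0204). TRAJ22, TRAJ30 and TRAJ33 made up 5.81% ± 1.89, 4.25% ± 1.60 and 3.31% ± 1.74 of expanded and 3.99% ± 0.291, 2.78% ± 0.203 and 2.00% ± 0.203 of other clonotypes. Their log2 fold changes were 0.50, 0.58 and 0.71, each with an edgeR adjusted p of 0.0494. Under TMM they were 0.27, 0.34 and 0.47 (edgeR adjusted p = 0.339, 0.303 and 0.207). These 3 calls were also lost without a filter (adjusted p = 0.0505 each) and, with 1 sample left out, in 12, 9 and 8 of 13 fits (highest adjusted p 0.161, 0.165 and 0.275). At a threshold of 0.05% the log2 fold changes were 0.44, 0.22 and 0.36 (edgeR adjusted p = 0.000499, 0.251 and 0.0614), and at 0.2% they were 0.55, 0.18 and 0.89 (adjusted p = 0.328, 0.865 and 0.270). Among the fits with 1 sample left out, TRAJ22 passed only in that without 7 months replicate 1, TRAJ30 only without 1.5 months replicate 2, 5 months replicate 1 or 7 months replicate 1 or 4, and TRAJ33 only without 1.5 months replicate 2, 3 months replicate 2 or 4, 5 months replicate 1 or 7 months replicate 4. W1 and W6 use TRAJ22, and W3, W4 and W5 use TRAJ12.

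TRAJ21, TRAJ35 and TRAJ13 were lower. TRAJ21 was used by 29 members, 2.28% ± 1.95 of expanded and 5.49% ± 0.338 of other clonotypes, a log2 fold change of -1.21 ± 0.24 (SE, edgeR adjusted p = 9.89e-06). TRAJ35 (chr14:54183774-54183838) was used by 952 other clonotypes and by 0 of 1230 members. It made up 1.24% ± 0.337 of other clonotypes and was lower in 13 of 13 samples (edgeR adjusted p = 9.89e-06). Pooled over samples, 0 of 1230 members allow a share of up to 0.244%, against 1.23% of the other clonotypes. That limit covers counting error only and takes the members as independent, so no least fold is drawn from it. The highest TRAJ35 clonotype took 0.0902% of its sample. TRAJ13 was used by 30 members, 2.57% ± 1.53 and 4.24% ± 0.437, a log2 fold change of -0.79 ± 0.24 (SE, edgeR adjusted p = 0.0112). The TRAJ13 call was lost without 7 months replicate 3 (adjusted p = 0.0576) or replicate 5 (0.0749), at a threshold of 0.2% (0.296) and against other clonotypes of at least 10 counts (0.0663).

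The lower J genes had low clonotypes in general. The median shares of all functional TRAJ21, TRAJ35 and TRAJ13 clonotypes were 0.00320%, 0.00170% and 0.00369%. Against other clonotypes of 0.01% or more, TRAJ35 had too few clonotypes to be tested, TRAJ21 had a log2 fold change of -0.61 (edgeR adjusted p = 0.227) and TRAJ13 one of 0.03 (adjusted p = 0.998). Only TRAJ12 was called against that reference (log2 fold change 0.68, adjusted p = 0.00268).

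V and J segments met in 382 family and gene pairs among the members, and 155 of these pairs held 1 member. The most frequent were TRAV4 with TRAJ12 (29 members in 12 samples), TRAV7 with TRAJ30 (27 members in 11 samples) and TRAV14 with TRAJ22 (26 members in 13 samples). They made up 2.54% ± 1.84, 2.37% ± 1.70 and 2.27% ± 1.26 of expanded clonotypes and 0.516% ± 0.0916, 0.657% ± 0.120 and 0.597% ± 0.118 of the others. These pairs were ranked by their number of members, so no test is given.

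Expanded clonotypes were found in other samples more often than the rest. As nucleotide clonotypes, 50.1% ± 12.4 of expanded and 24.0% ± 4.20 of other clonotypes were found in at least 1 other sample (n = 13, higher in 13 of 13, exact permutation test, p = 0.000244, adjusted p = 0.000732). Matched by the bases of the CDR3 alone, whatever the V and J names, they were 66.6% ± 12.6 and 36.5% ± 4.01 (higher in 13 of 13). By the full match, the share of expanded clonotypes in each sample was 76.8% and 43.6% at 1.5 months, and 55%, 52.4%, 45.1% and 72.5% at 3 months. It was 41.9% and 46.6% at 5 months, and 48.9%, 35.1%, 35.6%, 47.3% and 50.8% at 7 months. The highest values, 76.8% and 72.5%, belonged to 1.5 months replicate 1 and 3 months replicate 4, which lead the one-way sharing described above. Without the 3 library pairs that shared most in 1 direction, the values were 45.0% ± 5.89 and 22.7% ± 3.42, still higher in 13 of 13 samples. When an occurrence at least 100 times lower than the highest one was not counted, they were 27.6% ± 6.33 and 22.0% ± 3.50, and the difference was 5.56 percentage points (higher in 11 of 13, exact permutation test, p = 0.0276, adjusted p 0.0414). The loss is partly built in, because a clonotype has to be large before an occurrence 100 times lower can still be counted, so this setting takes more from expanded than from other clonotypes. The low occurrences themselves still counted as shared clonotypes of the reference, and with them removed there too the reference was 19.5% ± 2.22 and the difference 8.07 percentage points (higher in 11 of 13, exact permutation test, p = 0.00244, adjusted p = 0.00439). With 1 limit for both classes, counting only occurrences of 0.01% or more, the values were 24.3% ± 6.15 and 14.6% ± 2.82, and the difference was 9.75 percentage points (higher in 12 of 13, exact permutation test, p = 0.00122, adjusted p = 0.00220). Sharing of a sample is computed from the other samples, so the 13 differences are not independent. Every p-value for sharing, by nucleotide or amino-acid sequence, takes them as independent and can be too small.

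By CDR3 amino-acid sequence, 83.0% ± 7.35 of expanded and 60.7% ± 2.63 of other clonotypes recurred (n = 13, higher in 13 of 13, exact permutation test, p = 0.000244, adjusted p = 0.000732). Without occurrences at least 100 times lower these were 71.1% ± 6.00 and 59.6% ± 2.18, and with only occurrences of 0.01% or more 62.9% ± 7.07 and 48.1% ± 2.16 (higher in 12 of 13). Of the 1230 members, 110 (8.94%) had an amino-acid sequence that was found in all 12 other samples, against 1884 (2.44%) of the 77291 other clonotypes. A sequence found in no other sample was held by 219 members (17.8%) and 30322 others (39.2%). Without occurrences at least 100 times lower, 96 members (7.80%) and 1722 others (2.23%) were found in all 12, and 359 (29.2%) and 31247 (40.4%) in none. Sharing was higher where no base was inserted, in both classes. Nucleotide sharing was 60.4% ± 11.6 in expanded clonotypes without and 43.6% ± 14.3 in those with inserted bases, and 35.1% ± 3.21 and 19.1% ± 4.93 in the other clonotypes. Without occurrences at least 100 times lower it was 43.4% ± 8.62 and 17.1% ± 6.07 in expanded clonotypes, and 33.5% ± 2.66 and 16.9% ± 4.19 in the others, or 31.4% ± 2.15 and 14.2% ± 2.66 with the low occurrences removed from the reference too. With only occurrences of 0.01% or more it was 39.4% ± 8.04 and 14.5% ± 5.91 in expanded clonotypes, and 23.8% ± 2.35 and 10.499% ± 3.27 in the others.

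An expanded CDR3 amino-acid sequence was encoded by 2 or more different CDR3 base sequences of the same sample in 26.2% ± 8.00 of cases, against 20.5% ± 1.76 for the others (n = 13, higher in 9 of 13, exact permutation test, p = 0.0181, adjusted p = 0.0271). This call was lost when 1 of 5 samples was left out, namely 1.5 months replicate 1, 3 months replicate 1, 2 or 4, or 7 months replicate 2 (highest adjusted p = 0.0542).

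Few distinct clonotypes were expanded in several samples. The 1230 members were 1169 distinct nucleotide clonotypes, and 36 of these (3.08%) were expanded in 2 or more samples. The other 1133 were expanded in 1 sample, and 502 of them were found in another sample. Of the 36, 66.7% had no inserted bases, against 36.1% of the 1133, and their mean length was 12.97 against 13.47 amino acids. Matched by the bases of the CDR3 alone, 44 of 1142 distinct sequences (3.85%) were expanded in 2 or more samples. By amino-acid sequence there were 1076 distinct members, of which 82 (7.62%) were expanded in 2 or more samples and 1 in all 13. That sequence, TRAV14 with TRAJ22 and 14 residues long, was encoded by 17 different CDR3 base sequences over the series. It took 0.173% to 0.302% of each sample, with a median of 0.257%. Clonotype W1 was the form of it that was expanded most often.

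W1 was expanded in 10 samples. Its share was 0.194% and not found at 1.5 months, and 0.207%, 0.0611%, 0.185% and 0.131% at 3 months. It was 0.140% and 0.145% at 5 months, and 0.2001%, 0.162%, 0.102%, 0.169% and not found at 7 months. The same CDR3 nucleotide sequence carried 3 V names, and with any of them it was found in 13 samples and expanded in 12. Whether the gaps of W1 come from the V copy assigned was not tested.

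W2 was expanded in 8 samples. It took 0.119% and 0.367% at 1.5 months, and 0.119%, 0.304%, 0.165% and 0.0976% at 3 months. At 5 months it was not found in replicate 1 and took 0.243% in replicate 2, and at 7 months it took 0.194%, 0.102%, 0.0663%, not found and 0.0467%. W3 ranged from 0.00959% in 7 months replicate 5 to 1.32% in 5 months replicate 1 where found, and was expanded in 4 of 7 samples. W4 was found in 12 samples and expanded in 4, with 0.594% in 3 months replicate 1 as its highest share. W5 was expanded in 4 of 5 samples, up to 0.274%, and W6 in 3 of 4, up to 1.39% in 7 months replicate 3. The CDR3 nucleotide sequences of W2 to W6 also carried 2 to 4 V names each. With any V name the sequence of W2 was found in 13 samples and expanded in 8, that of W3 in 12 and 7, that of W4 in 13 and 4, that of W5 in 10 and 6, and that of W6 in 5 and 3. Each of the 6 was expanded in at least 2 time points.

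**Figure D5:**
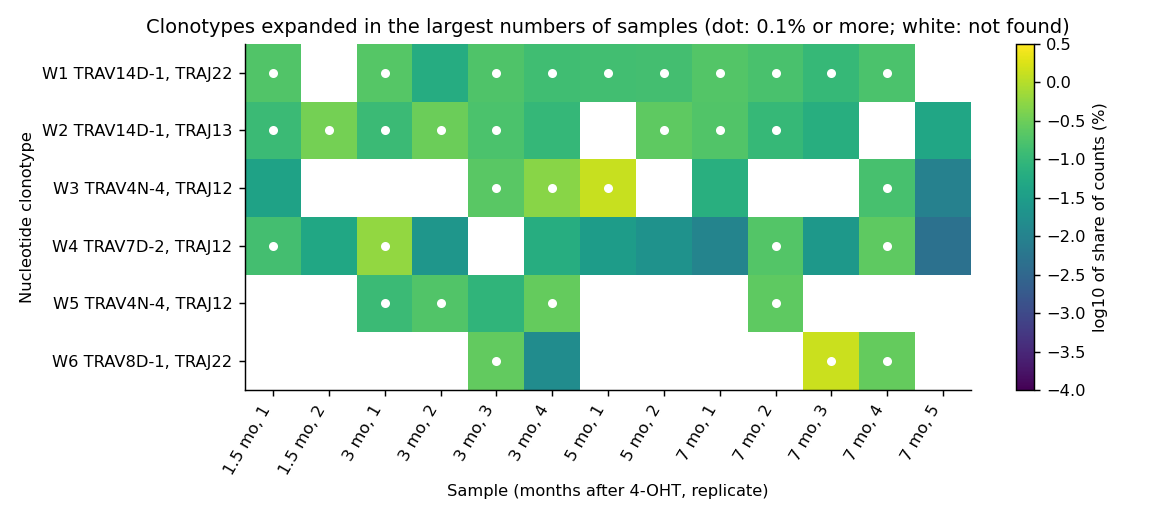
Share of functional counts of clonotypes W1 to W6 in each of the 13 samples, as the log10 of the percentage. White dots mark shares of 0.1% or more and white cells samples in which the clonotype was not found under that V name; W1 is expanded in 10 samples and W6 in 3.

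Samples of 1 time point were not shown to have more expanded CDR3 amino-acid sequences in common than samples of different time points. The number in common ranged from 1 to 11 over 78 pairs, with a median of 4, and the most, 11, were held by 1.5 months replicate 1 and 3 months replicate 1. The Jaccard index was 2.26% ± 1.44 (SD) over 18 pairs within and 2.44% ± 1.21 over 60 pairs between time points. The within-group mean differed from the other by -0.186 percentage points, which did not exceed the spread (two-sided exact permutation test with time points reassigned in every possible way, n = 13 samples, p = 0.575).

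The differences between expanded and other clonotypes were compared across time points, each later one against 1.5 months, in 27 comparisons over the 9 features. None passed (exact two-sided permutation tests over all arrangements, each p corrected for the 3 later time points and then adjusted over the 27), and no p was under 0.05 before the second adjustment. With only the 2 time points compared and no correction, 1 of the 27 had an exact permutation p under 0.05. Groups of this size cannot give such a p at 3 or 5 months. At 7 months 0.0476 is the smallest exact permutation p they can give. The smallest p was that of the share without inserted bases. The excess of expanded clonotypes was 15.8 ± 5.66 percentage points (SD, n = 2) at 1.5 months, 10.3 ± 5.74 (n = 4) at 3 months, 8.07 ± 4.28 (n = 2) at 5 months and 5.24 ± 3.64 (n = 5) at 7 months. The 7-month excess was 10.6 percentage points below that at 1.5 months (exact permutation p = 0.0542, adjusted p = 0.996), and with these 2 time points alone the exact permutation p was 0.0476. The size of this difference varied with the setting. It was -14.6 percentage points without 1.5 months replicate 2 (exact permutation p = 0.0370, adjusted p = 0.193). It was -6.60 without replicate 1 of that time point, -6.33 with the replicate number as a block, -5.53 at a threshold of 0.05% and -27.7 at 0.2% (exact permutation p = 0.347, 0.317, 0.190 and 0.0388, adjusted p = 0.998 or more in each). The excess in nucleotide sharing was 37.2 ± 19.6, 30.1 ± 5.71, 17.8 ± 8.93 and 21.7 ± 6.66 percentage points at 1.5, 3, 5 and 7 months, and the difference between 7 and 1.5 months was -15.5 (exact permutation p = 0.157, adjusted p = 0.996). It rested on the 1.5-month samples, being -1.61 without replicate 1 and -29.3 without replicate 2 of that time point (exact permutation p = 0.975 and 0.0171, adjusted p = 1 and 0.151), and was -8.65 at a threshold of 0.05%. Without occurrences at least 100 times lower the excess was 9.09 ± 10.7, 7.45 ± 9.57, -2.08 ± 12.7 and 5.68 ± 3.598 percentage points, and the difference between 7 and 1.5 months was -3.41 (exact permutation p = 0.897, adjusted p = 0.996). With them removed from the reference too the difference was -3.25 (exact permutation p = 0.890, adjusted p = 1).

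Segment use by time point gave 0 of 18 V families (0%) and 0 of 43 J genes (0%) called for a difference of the expanded from the other clonotypes between time points, with edgeR's quasi-likelihood test. At an unadjusted p under 0.05 there were 1 V family and 0 J genes. The V family was TRAV12 (adjusted p = 0.160). It made up 5.88% ± 0.745 (SD, n = 2) of expanded clonotypes at 1.5 months, 12.9% ± 1.87 (n = 4) at 3 months, 20.2% ± 11.7 (n = 2) at 5 months and 14.1% ± 4.38 (n = 5) at 7 months, and 11.1% to 11.8% of other clonotypes. With the replicate number as a block TRAV12 was called (adjusted p = 0.0282), and likewise without 5 months replicate 1 (adjusted p = 0.00108). TRAJ57 had the smallest p of the J genes (edgeR adjusted p = 0.942). It made up 3.96% ± 1.97 of expanded clonotypes at 1.5 months and 0.798% ± 0.979 at 3 months. The share was 3.01% ± 0.625 at 5 months and 0.703% ± 0.963 at 7 months.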

How the data were processed

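TCRα transcripts of 13 samples were amplified by 5′ RACE with an oligo carrying random bases and sequenced on a MiSeq. The authors aligned reads with MiXCR and corrected clonotypes by frequency with VDJtools, on build GRCm38 per the labels. Of 90369 deposited clonotypes, 2 were under 0.05 times the size of one 1 mismatch away in the same sample. The authors also removed non-functional clonotypes, but the deposited tables hold 11848 of them, which were left out here. The deposited tables give a raw count per clonotype, and whether these are reads or molecules is not given in the sources used here. The deposited fraction per clonotype was not used, since shares were recomputed over functional counts. The other deposited values used are the end of the V and the start of the J segment in the CDR3, and inserted bases are those between them. For 1 expanded and 53 other clonotypes no V end was given, and they were left out of that feature. Total counts were 509818 or more and functional counts 477052 or more per sample, which puts every member at 481 counts or more. Genome positions are those of GENCODE for GRCm38.

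Groups follow the time point in the titles. Each feature was averaged over clonotypes within a sample, each clonotype counted once. Differences were tested over all 8192 sign assignments of the 13 samples. Time points were tested by exact permutation in every possible way, corrected with the highest of the 3 statistics, and adjusted over 27 comparisons. V and J use was tested on clonotype numbers with edgeR 4.0.16 in R 4.3.3 (quasi-likelihood, sample block, library totals, filterByExpr), where each fit leaves the segments with few clonotypes untested. Python 3.11.15, numpy 2.4.6, pandas 2.3.3 and matplotlib 3.10.9 did the rest, and the code was tested on simulated data. Named segments were up to 5 higher and 5 lower with the smallest adjusted p under 0.05, or else the 1 with the smallest p. Named clonotypes were the largest of each sample, the 6 expanded in the largest numbers of samples (ties by mean share where expanded) and those nearest the threshold. V and J pairs, TRAV7, TRAV12-2, TRAV14-2, TRAJ37 and TRAJ50 were named after their values were seen.

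Members, lists and tests were chosen with earlier results of these data known. Alternatives were thresholds of 0.05% and 0.2%, the 100 largest clonotypes, equal depth (477052 counts), references of at least 10 counts or of 0.01% or more, other ways of counting sharing, weighting by counts, medians, TMM, DESeq2 1.42.0, no filter, permutation of shares, single V genes, a replicate block and each sample left out. Sharing by CDR3 nucleotides alone, leaving out 3 library pairs, sharing with only occurrences of 0.01% or more or with low occurrences removed as clonotypes too, the time comparison of sharing without occurrences at least 100 times lower and both checks of the cysteine count were chosen after seeing the data. Nothing in the labels ties samples with the same replicate number to each other, so the main designs have no replicate block. CDR3 amino-acid sequences are not printed here.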

Additional observations from a re-analysis of the deposited data

Results flagged for a closer look

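In 24 sets of samples (12 measures at 3 and at 7 months), 2 held a sample far from the others, and chance would give about 1 in 20. In 7 months replicate 1, the share of clonotypes with a cysteine after the first CDR3 residue was 0.233 percentage points higher among expanded than other clonotypes, while it was lower in the other samples of that time point. It rests on 1 expanded clonotype. In 7 months replicate 2, the mean TRAJ number of expanded clonotypes was lower by 2.99 (difference -2.99).

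Non-functional clonotypes, which the comparisons leave out, also reached the threshold. Of 11848 non-functional clonotypes, 27 (0.228%) in 10 samples took 0.1% or more of all counts, against 1083 functional clonotypes (1.38%) on the same scale, and the highest took 0.622%.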

How the results depend on the processing

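The lower number of inserted bases, the higher share without them and both measures of sharing kept their direction and passed under every alternative and with any sample left out. The cysteine difference did not pass with clonotypes weighted by counts (-0.252) or against the 0.01% reference (-0.179). The excess of CDR3s encoded more than once did not pass at 0.2% (2.65), against references of at least 10 counts (4.02) or of 0.01% (4.66), or weighted by counts (2.45), and ran from 4.83 to 6.63 with samples left out. Length passed without 5 months replicate 1 or 7 months replicate 5 (range -0.0942 to -0.0564). The mean TRAJ number passed against references of at least 10 counts (-1.08) or of 0.01% (-1.36). The hydrophobic share turned positive without 5 months replicate 2 (range -0.525 to 0.0490). V families called numbered 2 under TMM, 3 under DESeq2, 7 at 0.05%, 2 at 0.2% and 3 against the 0.01% reference. They numbered 4 to 5 with samples left out, and 15 of 60 single V genes (25%) were called. J genes called numbered 4 without a filter, 12 at 0.05%, 4 at 0.2%, 2 against at least 10 counts, 1 against the 0.01% reference, where TRAJ13 turned to a log2 fold change of 0.029, and 3 to 7 with samples left out. The mean number of expanded clonotypes was 314.6 at 0.05% and 29 at 0.2%, with 35.9% and 12.4% of counts, and the 7-month excess in number was 74.2 and 21.7. The overlap difference was 0.0279 at 0.05% and ran from -0.459 to 0.113 with samples left out. Apart from cases shown by construction (fewer clonotypes at 0.2%, more at 0.05%), the cause was not tested.

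In fits with a replicate block, 1 V family (TRAV12), 0 J genes and 0 of 27 feature comparisons were called by time point, and the overlap difference was -0.186. V families called by time point were 0 to 1 with samples left out. Same-numbered samples did not deviate together (mean correlation -0.0648 over 14 pairs, 6 above 0.1). Leaving out a sample of a pair leaves 1 in that group, which is then assumed to vary like the others. Groups of 2 limit every comparison with 1.5 or 5 months.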
